A study of Mus musculus with 4 samples.

Results

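Of the 50600 gene models counted in RNA immunoprecipitation libraries from mouse testis, 7 rRNA-like or background-heavy models are described here: Gm42418, AY036118, Gm26917, Lars2, Mir6236, Mir6240 and Tmem38b. They were chosen by symbol, either from their large shares of the IgG counts or for known rRNA-like sequence. The counts that chose them are therefore given here as a description, with no test on the members themselves. RNA immunoprecipitation (RIP) captures a protein from a lysate with its antibody and recovers the RNAs that come along. A non-specific IgG shows which RNAs come down without that protein. The tissue was testis of 8-week-old C57BL/6 mice, and the antibody recognised LARP7, a La-related protein known for its hold on 7SK and U6 RNA. The LARP7 RIP and the IgG RIP had 2 libraries each, 4 in all, and the series calls them biological replicates without naming the animals. Both groups shared the same wild-type strain, a lysis at 150 mM NaCl, 4 h on the beads, a wash at 500 mM NaCl and a small RNA library cut to 15 to 300 nt.

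Ribosomal RNA is made by RNA polymerase I from many near-identical gene copies, cut from a long precursor with the help of small nucleolar RNAs, and is the most abundant RNA of a cell. A 5S rRNA is made separately by RNA polymerase III. Pieces of these sequences also lie inside other annotated genes, pseudogenes and microRNA entries, so a read from rRNA can be credited to a gene model that is not an rRNA gene. Such models can take up much of a library's total, by which other genes are scaled.

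The gene models were of several kinds. In the RefSeq table of GRCm38.p6, 6 of the 7 symbols were matched, and Gm26917 was not, so no class or position is given for it. Gm42418 is listed there as a synonym of Rn18s-rs5, an 18S rRNA-related pseudogene at chr17:39846354-39848202. AY036118 is a long non-coding RNA at chr17:39848112-39898385 and overlaps Rn18s-rs5 by 91 nt. Lars2 (chr9:123366927-123462675) encodes the mitochondrial leucyl-tRNA synthetase, which charges tRNA with leucine. Tmem38b (chr4:53825988-53862019) encodes a trimeric intracellular cation channel of the endoplasmic reticulum. Within the span of Tmem38b lies an rRNA gene of 119 nt (chr4:53860652-53860770) that ends 1249 nt before the end of Tmem38b. That table holds 65 rRNA genes, of which 29 are 119 nt long, and 6 of the 65 lie within a protein-coding gene. The files hold no model under the symbol of the rRNA gene inside Tmem38b, and which bases of Tmem38b the reads came from cannot be read from counts per gene. Mir6236 (chr9:110281287-110281409) lies within the long non-coding RNA Gm39429, and Mir6240 is at chr5:114851948-114852064.

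The mature sequences of both microRNA entries are shown because their letters can be set against those of other microRNAs. They come from RefSeq (GRCm38.p6), and the capitals mark the seed, bases 2 to 8, which pairs with targets.
mmu-miR-6236: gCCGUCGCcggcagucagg
mmu-miR-6240: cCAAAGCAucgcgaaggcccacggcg
The first is 19 nt long and 78.9% G and C, and only 1.15% of the 1738 mature sequences in the table reach that content. The second is 26 nt long and 69.2% G and C, reached by 5.12% of the table. The median mature sequence has 22 nt and 52.2% G and C, and 15 of the 1738 are 26 nt or longer. No other mature sequence in the table carries the seed of mmu-miR-6236. The seed of mmu-miR-6240 is shared by mmu-miR-330-3p alone. The hairpin of Mir6240 follows, because the counts of this model refer to the whole hairpin of 117 nt and not to the mature piece, which is in capitals (bases 26 to 51).
Mir6240: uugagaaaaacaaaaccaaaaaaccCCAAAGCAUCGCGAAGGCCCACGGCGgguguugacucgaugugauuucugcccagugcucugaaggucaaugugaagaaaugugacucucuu
The G and C content of this hairpin was 47%. These letters were not compared with rRNA.

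The 4 libraries held 4411271 to 6994514 expected counts, which are the authors' estimates of reads per gene model and need not be whole. Of these, the 7 models took 17.4% and 10.9% in replicates 1 and 2 of the LARP7 RIP and 43.4% and 34.1% in replicates 1 and 2 of the IgG RIP. The mean share came to 14.1% ± 4.62 in the LARP7 RIP against 38.7% ± 6.62 in the IgG RIP (SD, n = 2 each), 2.74 times as much. The groups did not overlap, and the lowest IgG library held 1.96 times the share of the highest LARP7 library. Both IgG libraries lay above both LARP7 libraries for 6 of the 7 models, read against 63.9% of the 12228 other tested models; since the IgG counts chose the members, nothing is drawn from that count. Gm42418, Tmem38b and Lars2 supplied nearly all of it, 17.3% and 10.8% against 42.7% and 33.6%. The other 4 models together held 0.0679% and 0.0603% in the LARP7 RIP and 0.693% and 0.429% in the IgG RIP. With n = 2 a group, an exact permutation test cannot give a two-sided p below 0.333, and counting error was far smaller than the spread between replicates.

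Gm42418, the 18S-related model, had the most counts of all 50600 models on average in both groups. It held 1006528 and 510734 counts in the LARP7 RIP and 1625715 and 647374 in the IgG RIP. As shares these were 14.5% and 7.85% against 23.2% and 14.7%, with a Wilson 95% interval of 14.52% to 14.58% for the first LARP7 library. Mean shares were 11.2% ± 4.73 and 18.96% ± 6.06 (SD, n = 2 each), 1.69 times as high with IgG. The groups only just failed to overlap: IgG replicate 2 was 1.009 times LARP7 replicate 1. Replicate 1 exceeded replicate 2 by 1.85 times in the LARP7 RIP and 1.58 times in the IgG RIP, so its replicates lay about as far apart as its groups.

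Tmem38b, the cation channel gene, set the groups further apart. It held 1.55% and 2.62% of the LARP7 libraries and 12.5% and 15.7% of the IgG libraries, and it was the most counted model of all in IgG replicate 2. Its mean share was 2.08% ± 0.756 against 14.1% ± 2.24 (SD, n = 2 each), 6.79 times as high with IgG. The lowest IgG library was 4.79 times the highest LARP7 library, a gap wider than the spread between replicates in either group. Its only relative in the files, the channel gene Tmem38a, had 0, 7, 2 and 0 counts and passed no filter on low counts.

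Lars2 held 1.22% and 0.329% of the LARP7 libraries and 6.94% and 3.24% of the IgG libraries. Mean shares were 0.776% ± 0.632 and 5.09% ± 2.62 (SD, n = 2 each), 6.56 times as high with IgG and without overlap. Its replicates differed more than those of any other member but AY036118, by 3.72 times in the LARP7 RIP and 2.14 times in the IgG RIP. It was the third most counted model in the IgG RIP and number 18 in the LARP7 RIP by mean share.

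The microRNA entries took small shares but had the largest ratios between the groups. Mir6240 had 3758 and 2863 counts in the LARP7 RIP and 40513 and 13344 in the IgG RIP. Its mean share was 0.0492% ± 0.00728 against 0.441% ± 0.196 (SD, n = 2 each), 8.97 times as high with IgG. Mir6236 had 382 and 598 counts against 5484 and 4404, and a mean share of 0.00736% ± 0.00260 against 0.0891% ± 0.0152 (SD, n = 2 each), 12.1 times as high with IgG. Neither model overlapped between the groups. Mir6240 was number 19 of all models by mean share in the IgG RIP and number 135 in the LARP7 RIP, while Mir6236 was number 111 and number 477.

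Gm26917 and AY036118 took the smallest shares. Gm26917 had 549 and 462 counts in the LARP7 RIP and 2488 and 1168 in the IgG RIP, a mean share of 0.00752% ± 0.000588 against 0.0310% ± 0.00643 (SD, n = 2 each), which is 4.13 times as high with IgG. AY036118 had 4.91 and 0 counts in the LARP7 RIP and 4.95 and 21.03 in the IgG RIP. As shares its LARP7 replicate 1 (7.10e-05%) and IgG replicate 1 (7.08e-05%) were nearly equal, with the LARP7 library slightly higher. An expected count of 0 in LARP7 replicate 2 allows a share of up to 4.61e-05% (3 counts). AY036118 did not pass the filter on low counts, and 6 of the 7 models did. Its share of the IgG counts was not large, and it was number 10437 of all models there.

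**Figure D1:**
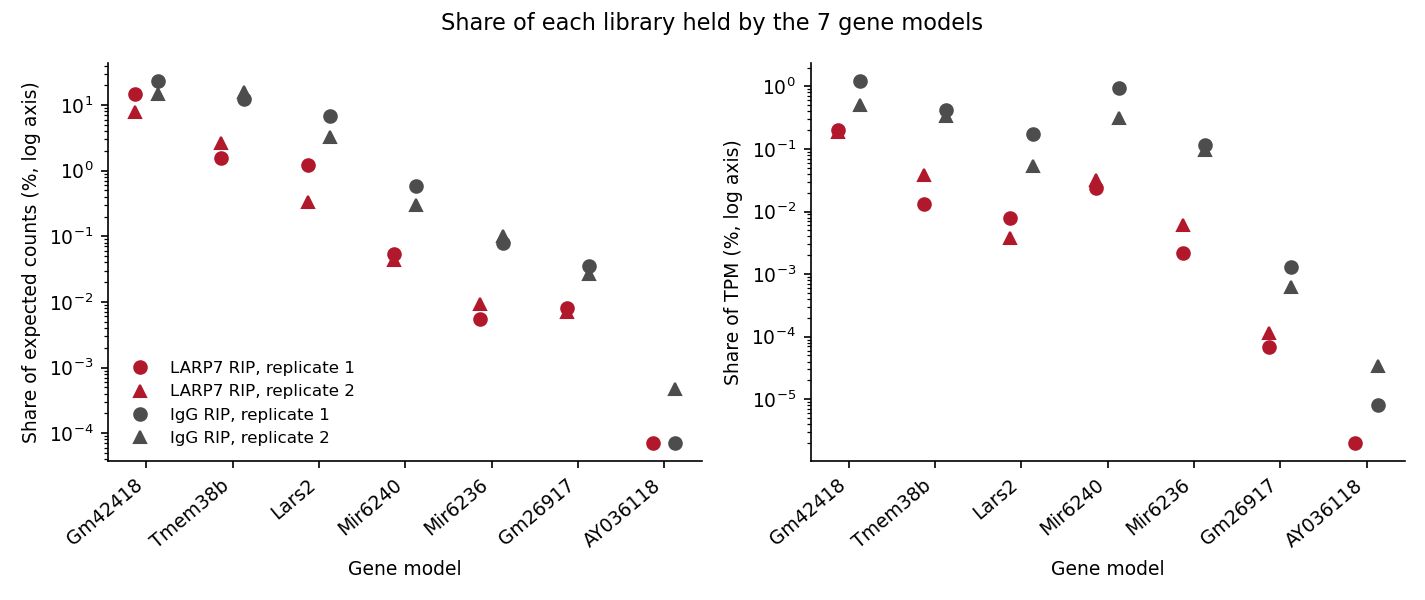
Share of expected counts (left) and of TPM (right) in percent, on log axes, for each of the 7 gene models in each library; red is the LARP7 RIP, grey the IgG RIP, circles replicate 1 and triangles replicate 2. By counts, every model except AY036118 lies higher in both IgG libraries, by 1.69 times on average for Gm42418 and 12.1 times for Mir6236, and by TPM all 7 do; AY036118 is listed at 0 in LARP7 replicate 2 and has no point there.

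The rule named symbols and set no threshold, and models outside it held more counts than its smaller members. In the IgG RIP the models next in order after Gm42418, Tmem38b and Lars2 (5.09%) were the box C/D small nucleolar RNAs Snord2 at 2.43% ± 0.296 and Snord49a at 2.08% ± 0.562 (SD, n = 2). In the LARP7 RIP, Rn7sk, the 7SK RNA that keeps the elongation factor P-TEFb inactive, followed Gm42418 with 9.45% ± 6.89, and Snord2 held 8.29% ± 6.06. Tmem38b was number 8 there.

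Per length the order changed. TPM, the transcript abundance from the authors, divides counts by effective length, which was 55.3 to 57.7 nt for Mir6240 and 1766 to 1770 nt for Gm42418. Gm42418 had TPM values of 1980 and 1857 in the LARP7 RIP and 12159 and 5027 in the IgG RIP. Mir6240 had 236 and 323 TPM against 9324 and 3179. On this scale Mir6240 reached 0.767 and 0.632 of the level of Gm42418 in the IgG libraries, but 0.119 and 0.174 of it in the LARP7 libraries. By counts these ratios were 0.0249 and 0.0206 with IgG. Tmem38b had 133 and 391 TPM against 4143 and 3401, Lars2 79.6 and 37.1 against 1739 and 532, and Mir6236 21.8 and 61.3 against 1150 and 953. Gm26917 stayed low at 0.68 and 1.13 TPM against 13.1 and 6.22, and AY036118 did not exceed 0.34 TPM in any library.

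The 7 models took much less of the TPM than of the counts. They summed to 0.245% and 0.267% of TPM in the LARP7 RIP and to 2.85% and 1.31% in the IgG RIP. The IgG level was 8.13 times the LARP7 level by TPM, against 2.74 times by counts. Since TPM adds up to the same total in each library, every other model's length enters these shares as well.

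The precision of the counts differed between the members. The posterior SD, deposited beside each count, measures how uncertain the split of multiply mapping reads between models is. It was 0 in all 4 libraries for Mir6236, Mir6240 and Gm26917, and at most 0.02 counts for Gm42418. It was 43.57 and 53.18 counts for Tmem38b in the LARP7 RIP and 191.54 and 196.24 in the IgG RIP, no more than 0.0407% of its count. For Lars2 it was 18.45 and 14.26 against 54.04 and 37.25 counts, at most 0.0667% of its count. For AY036118 it reached 66.9% of the count. Among all 50600 models, 23.2% had a posterior SD above 0 in all 4 libraries, as did AY036118, Lars2 and Tmem38b. A posterior SD of 0 says that the estimated split left no spread in the model's count. It does not show that no read was shared with another model in the annotation used. It does not say that the reads came from that gene, since rRNA copies not among the models are not weighed.

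For 1 member the split had a clear partner. AY036118 and the separate Rn18s-rs5 model of the files had the same posterior SD in each library, 2.59, 0.89, 3.31 and 6.17 counts. Their counts added up to whole numbers, 30, 41, 52 and 102, so the split between these models is uncertain. Although Gm42418 and Rn18s-rs5 are synonyms in RefSeq, the files hold them apart, and Rn18s-rs5 had 25.09 and 41 counts in the LARP7 RIP and 47.05 and 80.97 in the IgG RIP. The posterior SD of Lars2 exceeded that of the long non-coding RNA Gm15564 in every library (16.42, 11.04, 41.36 and 28.27 counts for Gm15564). Lars2 had 29.8, 19.5, 29.0 and 21.4 times the counts of Gm15564 in the 4 libraries. Unlike the pair above, these models had unequal SDs, and their counts did not add up to whole numbers. In the TPM columns, the deposited value lay above the upper end of its own deposited interval for 3 members in IgG replicate 1 and 2 members in IgG replicate 2, but for none in the LARP7 RIP. Among all models above 0 this held for 0.148% to 0.199% in the 4 libraries.

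Count ratios between members differed among the libraries. Gm42418 had 9.41 and 3.0 times the counts of Tmem38b in the LARP7 RIP and 1.85 and 0.934 times in the IgG RIP. Against Lars2 the ratio was 11.9 and 23.9 with the LARP7 antibody and 3.35 and 4.53 with IgG. Both ratios were thus higher in every LARP7 library than in either IgG library. The ratio of Mir6240 to Mir6236 followed the replicate number instead, at 9.84 and 4.79 in the LARP7 RIP and 7.39 and 3.03 in the IgG RIP. Tmem38b over Lars2 did the same, with 1.26 and 7.95 against 1.81 and 4.85.

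Replicates deviated alike in both groups. Gm42418, Lars2, Mir6240 and Gm26917 had larger shares in replicate 1 than in replicate 2 with either antibody, and Tmem38b and Mir6236 had smaller ones. AY036118 was the exception, but it had only 4.91 and 0 counts in the LARP7 RIP and 4.95 and 21.03 in the IgG RIP. With its split from Rn18s-rs5 uncertain, its side is uncertain too. The same side in both groups was thus found for 6 of the 7 members, and for 509 of the 748 other models with a mean of at least 50 CPM (68.0%). CPM is the count scaled to one common library size, here by library totals. The share for the members is to be read against that 68.0%, and whether a replicate number stands for a shared animal or day is not given.

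**Figure D2:**
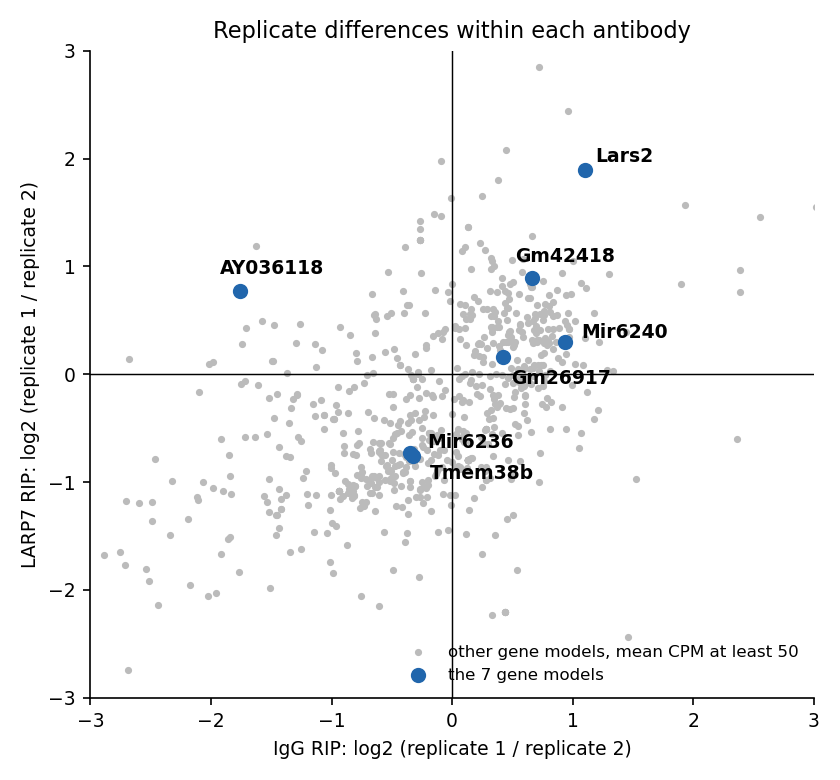
Replicate 1 over replicate 2 (log2, CPM with 1 added) in the IgG RIP (x axis) and the LARP7 RIP (y axis); blue points are the 7 gene models, grey points the other 748 models with a mean of at least 50 CPM, of which 15 lie outside the limits of 3. Lars2 lies highest to the upper right at 1.10 and 1.89, Tmem38b and Mir6236 lie to the lower left, and AY036118 is the only member in which the sides differ. The place of AY036118 is uncertain, since no library holds more than 21.03 counts of it.

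Models with the most similar profile were sought over the 4 libraries, as the smallest Euclidean distance between centred log2 CPM by library totals (with 1 added) among 754 models with a mean of at least 50. Of the 3 nearest to each member, none was another member. Gm42418 lay nearest to Rbm25, Snord92 and Sugp2, at distances of 0.294 to 0.483. Mir6240 had the closest neighbours, 1700010I14Rik at 0.0545, the sperm tail gene Akap4 at 0.0879 and the sperm surface gene Adam3 at 0.0920. Akap3 (0.177) and Clu (0.187) were among the 3 nearest to Gm26917. Lars2 lay nearest to Gm15564 at 0.534, then to the spermatid gene Tnp1 and to Nbr1. Tmem38b and Mir6236 shared a neighbour, Gm22513, at 0.372 and 0.509, and the 3 nearest to Tmem38b also held n-R5s195, at 0.486. Mir6236 lay nearest to Smim24 (0.269) and Ica1l (0.419), and Tmem38b also had Ybx1 (0.485). AY036118 had no close neighbour, with Gm22357 nearest at 0.804, then Gm26316 and RP23-246F14.3. The members themselves were closest for Mir6236 and Tmem38b (0.812) and furthest for Gm42418 and Mir6236 (3.13). These distances over 4 libraries describe likeness of profile only.

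The difference between LARP7 and IgG depended on how libraries were scaled. TMM scaling sets library sizes from the bulk of models, while library totals use all counts. For Gm42418 the log2 difference, LARP7 over IgG, was 0.72 (SE 0.88) with TMM, -0.76 with library totals and -2.03 on the log2(TPM + 1) scale. With TMM its CPM were 261532 and 117208 in the LARP7 RIP and 126991 and 102414 in the IgG RIP, so the groups overlapped. The sign for Gm42418 is thus set by the scaling. With a library left out in turn, the TMM value ran from 0.03 without LARP7 replicate 1 to 1.19 without LARP7 replicate 2.

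The other 5 models that passed the filter were lower with the LARP7 antibody under all 3 scalings. With TMM the log2 difference was -1.41 (SE 0.83) for Tmem38b, -1.17 (SE 0.90) for Lars2 and -1.69 (SE 0.70) for Mir6240. It was -2.25 (SE 0.63) for Mir6236 and -0.61 (SE 0.54) for Gm26917. For Lars2 it was -2.62 without LARP7 replicate 1 and -0.46 without LARP7 replicate 2. With library totals the values were -2.76 for Tmem38b, -2.71 for Lars2, -3.16 for Mir6240, -3.60 for Mir6236 and -2.04 for Gm26917. On the log2(TPM + 1) scale they were -4.04, -4.12, -4.30, -4.80 and -2.41 in the same order. The value of Gm26917, with 0.68 and 1.13 TPM in the LARP7 RIP, depends on the number added, and was -3.22 on log2(TPM + 0.1). Mir6236 was lowest and Gm42418 highest under each scaling, while Lars2 and Tmem38b changed places between counts and TPM. These values describe the members and carry no test, since the IgG counts chose them.

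**Figure D3:**
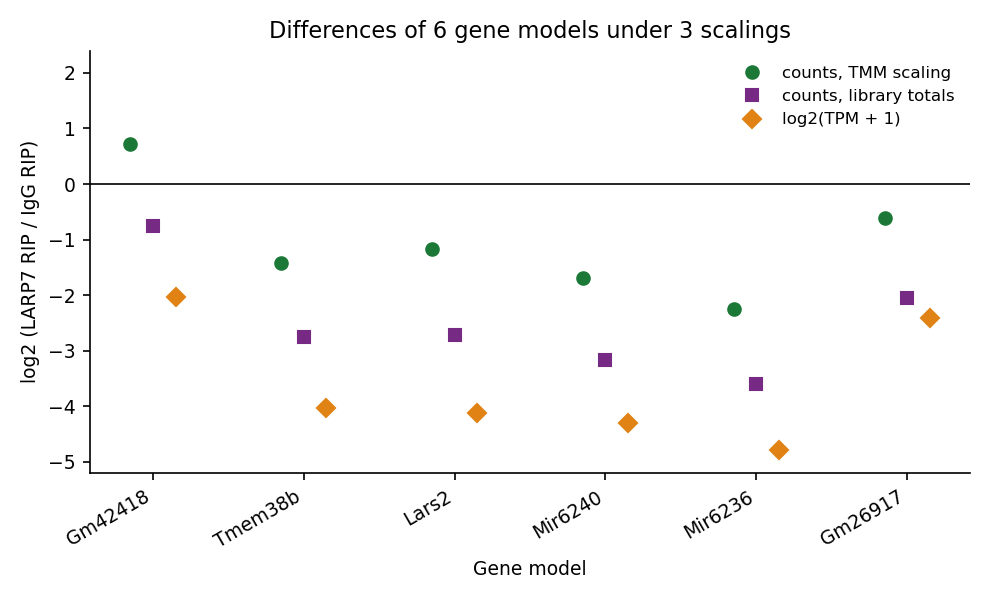
Log2 difference, LARP7 RIP over IgG RIP, of the 6 gene models that passed the filter on low counts, with counts scaled by TMM (green circles), by library totals (purple squares) and as log2(TPM + 1) (orange diamonds). Gm42418 alone lies on both sides of 0, at 0.72, -0.76 and -2.03, and Mir6236 is lowest under each scaling.

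Leaving the 7 models out changed the library totals in unequal steps. The CPM of all other models rose 1.21 and 1.12 times in the LARP7 RIP and 1.77 and 1.52 times in the IgG RIP. The difference of mean log2 CPM, LARP7 against IgG, therefore moved by -0.49 for each other model when scaled by the remaining totals. The log2 values fitted by edgeR moved by a median of -0.51 and by at most 0.64 in size. The gap between the mean log2 totals of the groups widened from 0.27 to 0.76. Tmem38b alone brought it to 0.46, Gm42418 alone to 0.40 and Lars2 alone to 0.34. Mir6240 alone brought it to 0.28, and the others left it at 0.27.

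TMM factors took up this change. They were 0.558 and 0.673 for the LARP7 RIP and 1.85 and 1.44 for the IgG RIP with all models, and 0.488, 0.546, 2.37 and 1.58 without the 7 models. The product of factor and total, the effective library size that enters the test, changed relative to the other libraries by -0.0235%, 0.0547%, -0.0191% and -0.0121%. The log2 gap of effective sizes was -1.14 with and -1.13 without the 7 models, and the gap of DESeq2 size factors was -1.19 with and without them.

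**Figure D4:**
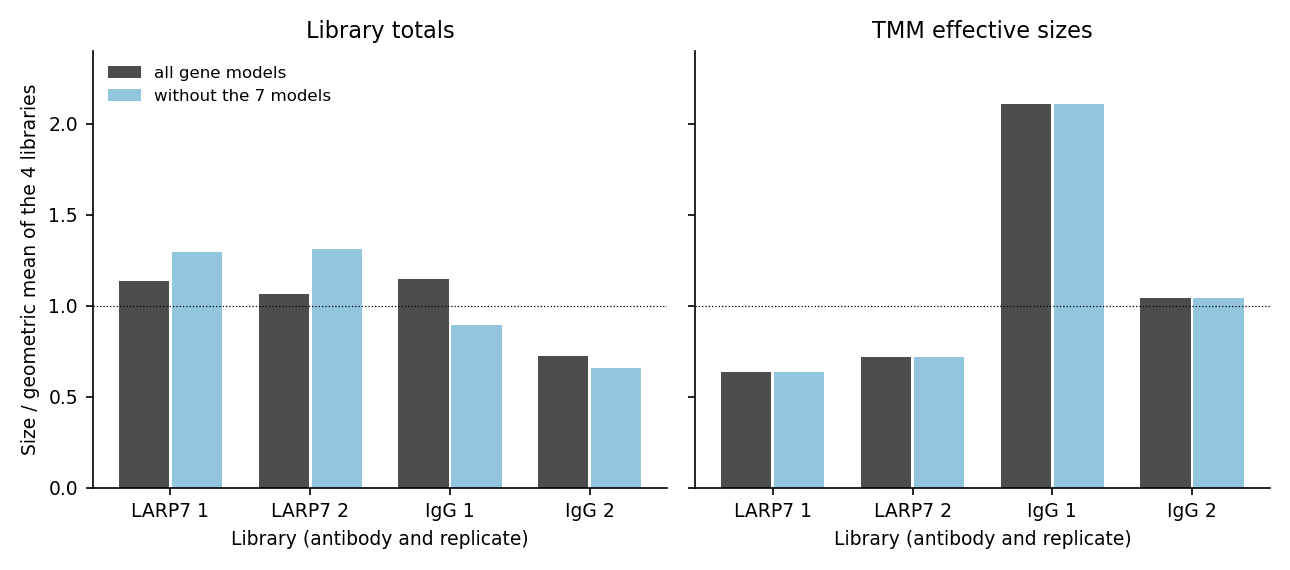
Library totals (left) and TMM effective library sizes (right), each divided by the geometric mean of the 4 libraries, with all gene models (dark bars) and without the 7 models (light bars). Without them the totals of IgG replicates 1 and 2 fall from 1.15 and 0.723 to 0.896 and 0.658 and those of the LARP7 libraries rise, while the effective sizes move by at most 0.0547%.

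Calls among the other models showed the same. Of 12228 tested, 1772 were higher with the LARP7 antibody (14.5%) and 1184 lower (9.68%) by edgeR's quasi-likelihood test with TMM and a Benjamini-Hochberg adjusted p under 0.05. Without the 7 models the counts were 1767 and 1186, and 1765 and 1181 of these were called with them too. No model's log2 value moved by more than 0.0028. With library totals, 458 models were higher (3.75%) and 5696 lower (46.6%). Removing the 7 models then left 250 higher and 6994 lower. Of the 458 higher calls, 231 were kept and 227 lost, 19 were gained, and 1298 lower calls were added with none lost. The median log2 difference over all these models was -0.05 with TMM, -1.46 with library totals and -1.97 with totals that leave the 7 models out. Leaving out a library moved these counts: without LARP7 replicate 2 the TMM counts were 353 higher and 50 lower, without LARP7 replicate 1 they were 1185 and 689, and without IgG replicate 1 they were 1422 and 770.

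**Figure D5:**
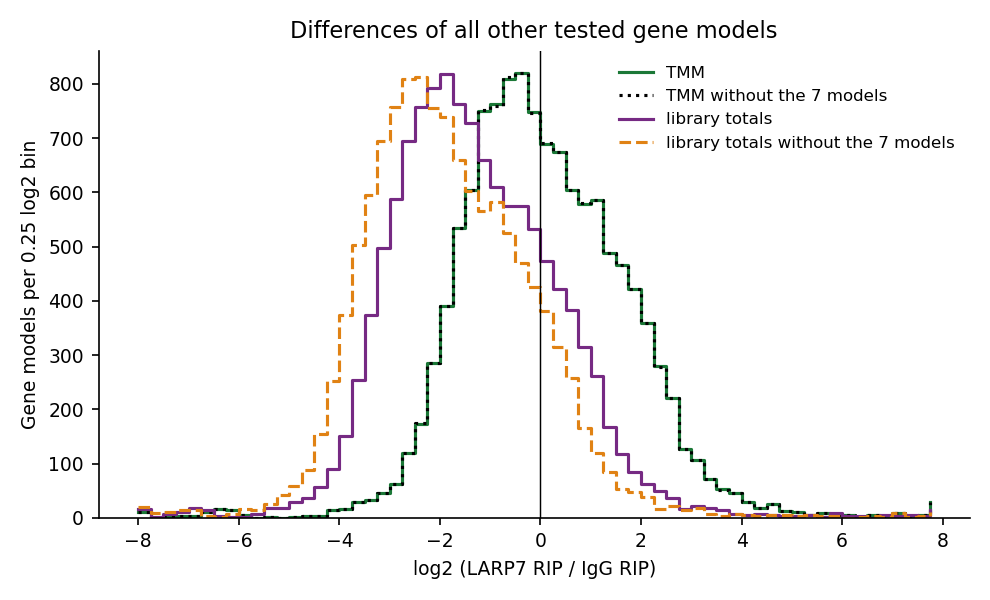
Number of other tested gene models in each bin of the log2 difference, LARP7 RIP over IgG RIP (x axis), under 4 scalings: TMM with (green) and without (dotted black) the 7 models, and library totals with (purple) and without (dashed orange) them. The TMM curves lie on each other with a median of -0.05, while the median with totals moves from -1.46 to -1.97.

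The same removal moved the abundant RNAs by similar amounts with library totals, and not all of their calls held. Rn7sk held 4.58% and 14.3% of the LARP7 libraries and 0.552% and 1.40% of the IgG libraries, and 5.54%, 16.1%, 0.976% and 2.12% once the 7 models were left out. Its log2 difference stayed at 4.53 with TMM and fell from 3.27 to 2.80 with library totals, called each time. Snord2 was 3.26 with TMM, and with totals it went from 1.77 (edgeR adjusted p = 0.0435) to 1.30 (edgeR adjusted p = 0.0724), so that its call ended. Snord49a went from 1.66 to 1.19 and Rpl13, a ribosomal protein gene with 4.48% ± 1.35 of the LARP7 counts, from 1.39 to 0.91. With totals neither was called either way, but with TMM both were. All 4 TMM calls ended without LARP7 replicate 1 (edgeR adjusted p from 0.0719 for Rn7sk to 0.320 for Snord2) or without LARP7 replicate 2 (from 0.184 for Snord2 to 0.311 for Rpl13).

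RNAs that act on rRNA were set beside the members. The list of rRNA processing RNAs held the U3, U8, U13 and U14 small nucleolar RNAs and related RNAs, with 20 of its 21 models tested. Of these, 3 were higher with the LARP7 antibody and 0 lower by edgeR with TMM (0 lower at an unadjusted p under 0.05; 4 higher and 0 lower by DESeq2), beside 14.5% higher and 9.68% lower among all other models. The median log2 difference of the list was 0.64, against -0.05 over all models. Snord13, the U13 RNA, had 648 and 442 CPM in the LARP7 RIP and 27.7 and 78.6 in the IgG RIP (log2 difference 3.36, SE 0.72, edgeR adjusted p = 0.0126). Without LARP7 replicate 2 its adjusted p was 0.0574. Snord118, the U8 RNA, and Snord14e, a U14 RNA, are named after their values were seen, with log2 differences of 2.49 and 1.89 (edgeR adjusted p = 0.0195 and 0.0119). Both calls ended without LARP7 replicate 2 (0.0568 and 0.0678) and without IgG replicate 1 (0.0677 and 0.0542), and that of Snord118 also without LARP7 replicate 1 (0.066). The U3 models, which guide the first cuts of the rRNA precursor, are uncertain since 8 of the list's models share identical counts with another. Summed over 10 models, U3 held 0.168% and 0.123% of the LARP7 libraries and 0.299% and 0.284% of the IgG libraries, and the single model Rnu3a with the most CPM had a log2 difference of 0.10 with TMM. With library totals the list had 1 higher and 6 lower, and 1 and 10 without the 7 models. Of all 12228 other models, totals called 3.75% higher and 46.6% lower, and 250 and 6994 models without the 7. Several Rnu3b models with identical counts (log2 difference -2.18 with totals, edgeR adjusted p = 0.00166) each entered these lower counts. The lower calls of the list are therefore not all separate observations.

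The mRNAs of RNA polymerase I and of ribosome assembly gave the next list. Of 37 tested, 6 were higher and 1 lower by edgeR with TMM, beside 14.5% and 9.68% of all other models, and the median log2 difference was 0.18. Taf1d, a subunit of the RNA polymerase I selectivity factor whose gene also hosts small nucleolar RNAs, had 698 and 1139 CPM against 63.7 and 234 (log2 difference 2.63, edgeR adjusted p = 0.0334). Leaving out LARP7 replicate 1 (0.0811), its replicate 2 (0.188) or IgG replicate 1 (0.0879) ended that call. Npm1, the nucleolar protein nucleophosmin, was lower at -1.33 (edgeR adjusted p = 0.0352). Leaving out either LARP7 library (0.0661 without replicate 1, 0.15 without replicate 2) or IgG replicate 1 (0.219) ended that call. The box C/D core protein gene Nop56 (1.42, edgeR adjusted p = 0.151) and the nucleolin gene Ncl (-0.06, edgeR adjusted p = 0.924) did not pass. With library totals the list had 1 higher and 14 lower, beside 3.75% and 46.6% of all other models. Without the 7 models it had 0 and 20, beside 250 and 6994 of 12228.

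The aminoacyl-tRNA synthetase genes are the family of Lars2. Of 33 tested, 3 were higher and 1 lower by edgeR with TMM, beside 14.5% and 9.68% of all other models, and the median log2 difference was 0.08, while Lars2 stood at -1.17. The tyrosyl enzyme gene Yars had 42.9 and 46.6 CPM in the LARP7 RIP and 8.83 and 9.18 in the IgG RIP (log2 difference 2.31, SE 0.40, edgeR adjusted p = 0.00602), and its adjusted p was 0.0128 to 0.0303 with a single library left out. Mars2, which encodes a mitochondrial enzyme as Lars2 does and is named after its values were seen, was higher at 2.02 (edgeR adjusted p = 0.0175), a call that ended without LARP7 replicate 2 (0.149). The valyl enzyme gene Vars was lower at -1.56 (edgeR adjusted p = 0.0287), and not without LARP7 replicate 2 (0.144) or IgG replicate 1 (0.138). With library totals 0 were higher and 13 lower, beside 3.75% and 46.6% of all other models. Without the 7 models 0 were higher and 19 lower, beside 250 and 6994 of 12228. By edgeR's unadjusted p under 0.05, 5 of the 33 were higher and 2 lower with TMM, beside 4785 of the 12228 other models in either direction.

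The last list held other rRNA models, with Erdr1 and the long non-coding RNA Gm15564 also on it. Of 15 listed symbols, 6 were found and 5 tested. By edgeR with TMM 0 were higher and 2 lower, beside 14.5% and 9.68% of all other models. At an unadjusted p under 0.05, 0 were higher, and DESeq2 called 0 higher and 2 lower. The mitochondrial 16S rRNA mt-Rnr2 had 1282 and 728 CPM in the LARP7 RIP and 6304 and 4755 in the IgG RIP (log2 difference -2.46, edgeR adjusted p = 0.0371). The 12S rRNA mt-Rnr1 had a log2 difference of -2.16 (edgeR adjusted p = 0.0446). Leaving out LARP7 replicate 1 (0.162 and 0.140) or its replicate 2 (0.354 and 0.357) ended both calls. Gm15564, the neighbour of Lars2 in profile, had -1.26 (edgeR adjusted p = 0.212). Of 12 satellite repeat models, 0 had enough counts to be tested.

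Markers of the labelled tissue were present. All 12 germ cell markers were tested by edgeR with TMM. With the LARP7 antibody 0 were higher and 4 lower, beside 14.5% and 9.68% of all other models. By DESeq2 0 were higher and 6 lower. Tex101 (log2 difference 1.14) and Sycp3 (0.29) lay higher and were not called. With a replicate term 1 marker, Tex101, was called higher and 7 lower, beside 2088 and 1403 of the 12228 other models. The 4 called lower were the spermatid genes Prm1, Tnp2, Odf1 and Akap4 (Prm1 and Tnp2 are named after their values were seen). None of these 4 calls held without LARP7 replicate 2 (edgeR adjusted p from 0.0507 for Prm1 to 0.187 for Odf1). Summed over all 12 germ cell markers, the level was 308 and 255 CPM of the library total in the LARP7 RIP and 2295 and 1861 in the IgG RIP. Sertoli markers summed to 22.8 and 20.6 against 127 and 87.5, Leydig markers to 27.5 and 28.5 against 85.6 and 71.0, and blood and vessel markers to 2.42 and 1.09 against 5.29 and 2.72. Among the blood markers, Ptprc had 0 counts in 3 libraries. By library totals the summed markers were thus higher in both IgG libraries. The same held for 63.9% of the 12228 other tested models, so it is not particular to the markers. The part of the markers in the members' shares was not tested. With TMM the median log2 difference was -1.30 for germ cell markers and -0.14 for Leydig markers, of which 0 of 5 were called by edgeR (0 at an unadjusted p under 0.05 and 0 by DESeq2). Of 3 Sertoli markers tested, 0 were higher and 1 lower by edgeR, and 0 were called by DESeq2. The lower one was Wt1 (log2 difference -2.05, edgeR adjusted p = 0.0448), with 8 and 4 counts in the LARP7 RIP and 59 and 50 in the IgG RIP. Its log2 difference was -2.74 without LARP7 replicate 1 and -1.57 without LARP7 replicate 2. With a replicate term Wt1 was not called. Both groups came from testis of the same strain and age, so the marker values compare what each pulldown recovered. Cell numbers and RNA per cell were not measured.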

How the data were processed

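RNA from LARP7 and IgG pulldowns of mouse testis was sequenced in 4 libraries (2 a group, taken from the sample titles). The tools credited by the submitters' processing notes are cutadapt, Bowtie2 and RSEM, on mm10, with no versions or settings in the sources used here. The deposited tables give expected counts (estimated counts that need not be whole, with multiply mapping reads split between models), a posterior SD of each count and, from the authors, TPM, which divides by effective length. The members and the lists of other genes were chosen with earlier results of these data known, and the gene lists are not independent of them.

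Expected counts were rounded and tested over all 12234 models that passed filterByExpr with edgeR 4.0.16 in R 4.3.3 (TMM, robust quasi-likelihood, two-sided, Benjamini-Hochberg, threshold 0.05). Counts of calls leave the members out, hence 12228. The fit was tested on simulated data. Alternatives were DESeq2 1.42.0, limma 3.58.1 on log2(TPM + 1) and log2(TPM + 0.1), library totals, removal of the members, no filter, a replicate term and each library left out. With a library left out, 1 library faces 2, and the lone one is assumed to vary like the other group. DESeq2 gave no adjusted p for 1424 models, which were left uncalled.

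Named genes were the 7 members, the most counted models of each group, up to 4 tested genes with the highest mean CPM in each list, the 3 nearest profiles of each member and models overlapping a member. Some of these genes are not reported here. Of the 50600 symbols, 70.6% matched the RefSeq table. Replicate libraries differed by more than sampling noise (chi-square per degree of freedom 124 for LARP7 and 53.4 for IgG). The source animals are not named, so p-values reflect only how far these libraries spread, in part perhaps for technical reasons. Wilson intervals and the floor of 3 counts cover counting error only, since the reads carry no molecular identifiers that the sources mention. TMM-scaled CPM values (counts scaled to one library size) are used unless totals are named.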

Additional observations from a re-analysis of the deposited data

How the results depend on the processing

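Of 113 recomputed values, 57 were labelled the same, 55 moved and 1 reversed. A count was the same within 1.5 times the main value. A share or log2 difference was the same if it kept its sign and moved by less than the pooled replicate SD. That SD was 5.71 percentage points for the summed share and 0.474 for the summed log2 difference, so -0.55 beside -0.08 counts as the same. The causes were not tested, beyond what each setting itself removes. The summed share of the members (LARP7 minus IgG, -24.6 percentage points) was -1.83 as a share of TPM and -16.9 without Gm42418, and ran from -29.3 to -19.9 with a library left out. The summed log2 difference of the members (-0.08 with TMM) was -1.48 with library totals, -1.98 with totals without the members, and -2.92 on both TPM scales. It ran from -0.55 to 0.40 with a library left out and reversed to 0.40 without LARP7 replicate 2. Limma on log2(TPM + 1) called 0 models higher and 0 lower (4038 at an unadjusted p under 0.05), and on log2(TPM + 0.1) 59 and 4328. Library totals called 458 and 5696 (250 and 6994 without the members), and DESeq2 called 726 lower.

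The list counts below are to be read beside all 12228 other models, of which totals called 3.75% higher and 46.6% lower. For rRNA processing RNAs, 1 was higher and 6 lower with totals, 1 and 10 without the members in the totals, 0 higher on both TPM scales and 10 lower on log2(TPM + 0.1). Models with identical counts are counted separately in these. For ribosome biogenesis mRNAs the counts were 1 and 14, 0 and 20, 0 and 0 on log2(TPM + 1), and 0 and 14 on log2(TPM + 0.1), with 0 lower by DESeq2. For synthetases they were 0 and 13, 0 and 19, 0 and 0, and 0 and 13, with 2 lower when no filter was used. With a library left out, all models ran from 353 to 2007 higher and from 50 to 1021 lower. The same ranges were 0 to 3 higher for rRNA processing RNAs, 0 to 5 higher and 0 to 1 lower for ribosome biogenesis mRNAs, and 1 to 5 higher and 0 to 1 lower for synthetases.

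With a replicate block, 2088 models were higher and 1403 lower. Deviations of libraries with the same number correlated at r = 0.20 over 12234 models, and with 2 pairs the numbers are shared only as numbers. Low counts limit AY036118 most.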
